A study of Mus musculus with 8 samples.

Results

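The livers of wild-type mice given an injection of lipopolysaccharide (LPS) each day for 7 days were compared with the livers of untreated wild-type mice, by RNA sequencing of whole liver. Each group held 2 libraries, given as biological replicates, from male C57Bl/6J animals, and the daily dose was 1.5 mg/kg. The control animals are labelled untreated, and the labels do not state a vehicle injection, the time between the last injection and the removal of the liver, or an age. The study also holds the same pair of conditions in ApoE-Cyp7a1 transgenic mice, which carry a liver-specific transgene for Cyp7a1, the enzyme that sets the rate at which cholesterol is turned into bile acids; those 4 libraries enter here only through the estimate of the spread between replicates and in a comparison at the end. Expression was deposited as FPKM, mapped fragments scaled by transcript length and by library size. A gene was analysed when it reached 1 FPKM in at least 2 of the 4 wild-type libraries, which 11097 of the 17294 features with any value above 0 did. Changes are differences in log2(FPKM + 1) between the group means, LPS minus untreated, with the standard error (SE) and a Benjamini-Hochberg adjusted p from limma, and a gene is said to have risen or fallen when that adjusted p was under 0.05. The scale of log2(FPKM + 1) understates the change of genes of low level. Values are given for untreated replicates 1 and 2, then for LPS replicates 1 and 2.

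LPS is the glycolipid of the outer membrane of Gram-negative bacteria. It is carried to CD14 on the surface of macrophages and endothelial cells and signals through the complex of TLR4 and MD-2 to NF-kB and to the interferon response factors. The liver filters LPS from portal blood through its resident macrophages, the Kupffer cells, and its sinusoidal endothelial cells, and the cytokines they release make hepatocytes secrete acute phase proteins. Cells that meet LPS again and again answer with a smaller cytokine response, a state known as endotoxin tolerance, and dampen signalling through proteins such as IRAK-M (encoded by Irak3), A20 (Tnfaip3) and the enzyme that removes acyl chains from LPS (Aoah).

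The tissue label was checked on genes that define hepatocytes: 18 of 20 were analysed, with a summed level between 59482 and 62945 FPKM in the untreated libraries and between 38735 and 39609 FPKM with LPS. Albumin (Alb) is listed at 0 in all libraries, which is not read as absence. The untreated libraries were less alike than the LPS libraries, with a standard deviation of the log2 difference between replicates of 0.477 against 0.220. Untreated replicate 1 stood apart through genes of the exocrine pancreas, whose summed level over the 14 analysed was 1673 FPKM there and 98.8 FPKM in untreated replicate 2, against 94.6 and 241 FPKM as the lowest and highest with LPS; none of the 14 passed the test. Without untreated replicate 1 the test called 2232 rises and 1238 falls in place of the counts below, so fewer falls were called with it than without it. The number of reads behind each value is unknown, since FPKM alone were deposited.

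LPS changed the level of 2455 of the 11097 genes (22.1%). Of these, 1829 rose (16.5%) and 626 fell (5.64%). Rises were also larger: 1056 genes (9.52%) rose by at least 2-fold and 82 (0.739%) fell by at least 2-fold. Among the 819 genes that entered the analysis through 1 group only, 760 were above the floor with LPS and 59 in the untreated livers, and such genes had to differ between the groups. Of the 10278 genes at the floor or above it in both groups, 1157 rose (11.3%) and 609 fell (5.93%). The rises held up better when single libraries were left out. Each of the 8 fits that left out 1 library called 1134 of the 1829 rises, but 36 of the 626 falls. Leaving out LPS replicate 1 gave 1209 rises and 69 falls, and leaving out LPS replicate 2 gave 1377 calls, 70 of them falls; the falls numbered 1238 without untreated replicate 1, 382 without untreated replicate 2, and without either transgenic untreated library 318.

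As deposited, the share of genes that rose or fell differed with the level of the gene. Among the 290 genes with a mean under 1 FPKM over the wild-type libraries, 67.9% rose and 2.07% fell, which the floor itself favours. From 5 to 20 FPKM (4248 genes) 11.9% rose and 5.23% fell, and the median change was -0.10. From 100 to 1000 FPKM (552 genes) 4.17% rose and 16.5% fell, with a median of -0.36, and for the 61 genes at 1000 FPKM or more the median was -0.49. In FPKM, the sum of the gains over all 17294 features with any value above 0 was 49403. The sum of the losses over the same features was -130029, so that their total fell by 16.3%. The plot of change against level shows, as deposited, rises concentrated at low and middle levels and falls at middle and high levels. Because FPKM sums differed between the groups (580051 and 543010 in the untreated libraries, 469644 and 461001 with LPS), the scaling bears on the falls. The median change over all analysed genes was -0.05 as deposited and 0.18 once each library was rescaled to the same sum, and the share of calls that were rises was 74.5% as deposited, 94.6% after rescaling, 63.3% after quantile normalisation and 66.4% after centring each library on its median. After rescaling, 141 genes fell (1.27%) and 2480 rose (22.3%); all 3 of these scalings called 1454 of the 1829 rises and 130 of the 626 falls, and all 626 falls kept a lower level with LPS after rescaling. Rescaling also turned the balance at high levels: from 100 to 1000 FPKM 48 genes then rose and 32 fell, with a median of -0.10, from 20 to 100 FPKM 237 rose and 49 fell, and from 1000 FPKM 5 rose and 3 fell.

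**Figure D1:**
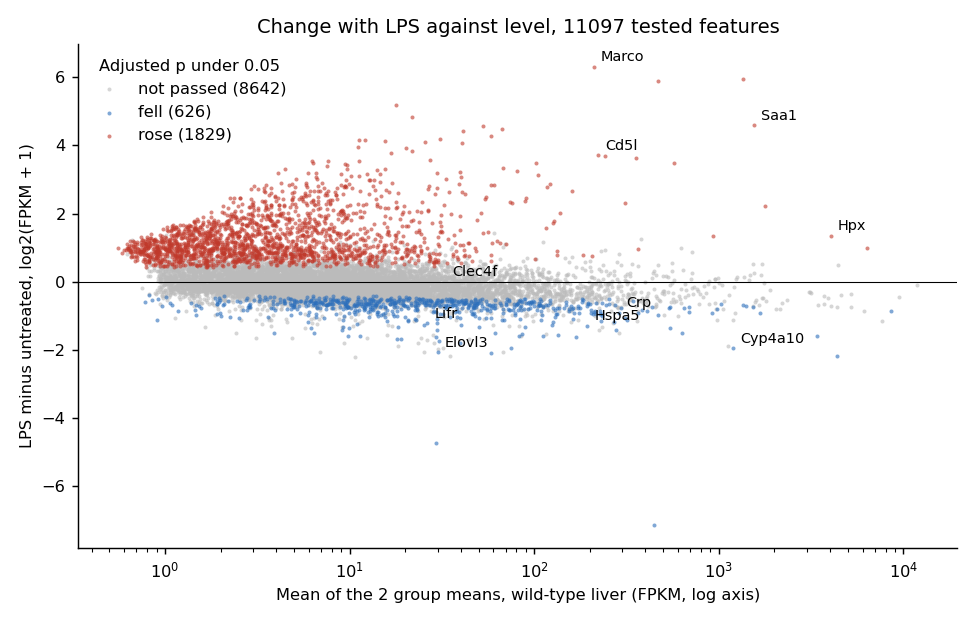
Change with repeated LPS in wild-type liver, as the difference in log2(FPKM + 1) (vertical), against the mean level over the 4 wild-type libraries (horizontal), 1 point per gene, with genes that rose and fell coloured. Of 11097 genes 1829 rose and 626 fell, and as deposited more genes fell than rose in each range of level from 20 FPKM upwards, which turned once libraries were rescaled to the same sum.

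Of the gene lists used to group the results, those of phagocytes, blood vessels and matrix had high shares of rises, and those of protein folding, protein degradation and hepatocyte metabolism had the falls. All 15 analysed genes of the phagocyte oxidase and antimicrobial list rose, as did 17 of 18 Fc receptor and ITAM signalling genes, 12 of 14 Kupffer cell markers, 13 of 15 collagens and 20 of 25 matrix remodelling genes, beside 16.5% of all genes. Some members entered through 1 group only and so had to differ; of those at the floor or above it in both groups, the rises were 8 of 8, 11 of 12, 10 of 12, 10 of 12 and 12 of 17 in the same order, beside 11.3% of all such genes. In the other direction 20 of 30 proteasome subunits, 14 of 27 endoplasmic reticulum (ER) chaperones, 12 of 34 cytochrome P450 genes of families 1 to 4 and 9 of 25 phase II conjugation genes fell, beside 5.64% of all genes. In bulk liver a larger number of cells of a type and more RNA per cell cannot be told apart, which holds for every gene list below.

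**Figure D2:**
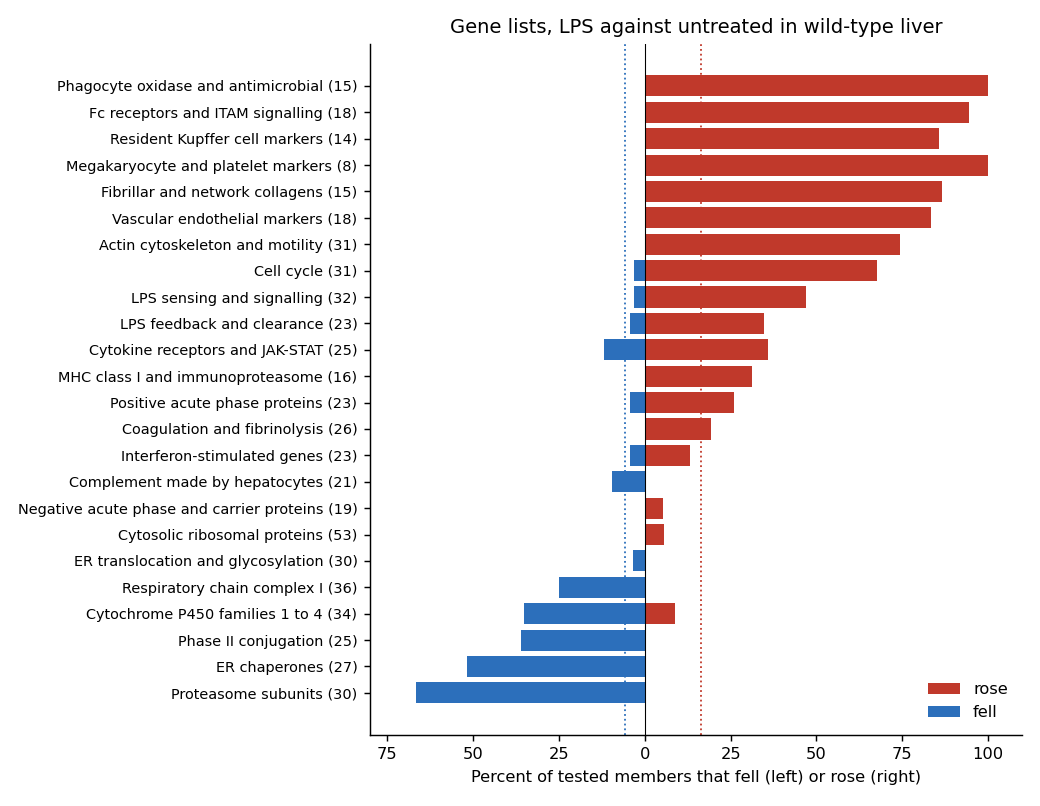
Share of the analysed members of each gene list that rose (right, red) or fell (left, blue) with repeated LPS in wild-type liver, in percent, with the number analysed in brackets and dotted lines at the share over all 11097 genes, 16.5% and 5.64%. Lists of phagocytes and matrix reach high shares of rises, and proteasome subunits and ER chaperones reach the high shares of falls.

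Among the acute phase proteins that hepatocytes secrete into plasma, the serum amyloid A proteins, apolipoproteins of high-density lipoprotein made in inflammation, changed most. Saa1 (chr7:46740497-46742980, GRCm38) was at 198 and 73.4 FPKM in the untreated livers and at 2735 and 3165 FPKM with LPS, a log2 change of 4.60 ± 0.52 (SE, n = 2 per group, adjusted p = 0.000556). Saa2 (chr7:46751790-46754313) went from 88.3 and 19.1 FPKM to 2529 and 2745 FPKM (5.96 ± 0.73, adjusted p = 0.000846), and Saa3 (chr7:46711998-46715700), the form made largely outside hepatocytes, from 29.3 and 6.73 FPKM to 923 and 907 FPKM (5.90 ± 0.70, adjusted p = 0.0007). Both LPS livers were far above both untreated livers for all 3 genes, and the untreated replicate with the pancreatic genes was the higher of the untreated pair each time. Saa1 and Saa2 are near-identical copies, so the split of reads between them is uncertain. Saa4, the constitutive form, had 169 and 102 FPKM untreated and 67.1 and 68.3 FPKM with LPS, which did not pass (-0.94, adjusted p = 0.189).

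The promoters of Saa1 and Saa2 are shown because these neighbouring genes rose together and hold the same match. Each run is 300 bases, 250 before the start of the gene and 50 from it, from RefSeq (GRCm38.p6): Saa1 on the minus strand at chr7:46742931-46743230 and Saa2 on the plus strand at chr7:46751583-46751882. Capitals mark a match to TTNNGCAA on either strand, the letters used here for C/EBP, a family of liver transcription factors. It begins 182 bases before the start of Saa1 and 183 bases before that of Saa2.
Saa1: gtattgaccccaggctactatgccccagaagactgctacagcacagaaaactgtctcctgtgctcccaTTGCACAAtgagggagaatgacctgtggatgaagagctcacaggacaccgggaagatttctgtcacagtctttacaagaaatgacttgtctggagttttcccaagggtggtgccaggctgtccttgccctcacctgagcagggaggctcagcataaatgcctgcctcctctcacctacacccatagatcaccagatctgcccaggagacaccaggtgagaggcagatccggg
Saa2: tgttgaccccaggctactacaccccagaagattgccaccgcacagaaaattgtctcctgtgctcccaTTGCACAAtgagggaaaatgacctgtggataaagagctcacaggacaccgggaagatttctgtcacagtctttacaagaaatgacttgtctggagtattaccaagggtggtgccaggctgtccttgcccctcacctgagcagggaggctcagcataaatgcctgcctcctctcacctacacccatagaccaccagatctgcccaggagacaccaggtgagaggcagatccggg

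These letters were found in 9 of the 19 matched promoters of positive acute phase genes (47.4%) and in 683 of the 8046 promoters of analysed genes (8.49%). The letters TTCNNNGAA, used for STAT factors, were found in 6 of the 19 (31.6%) and in 7.06% of all. Among the 733 promoters of genes that rose at least 2-fold, the C/EBP letters stood in 10.6%, the STAT letters in 7.64% and the NF-kB letters GGNNTTTCC in 6.41%, the last beside 6.09% of all promoters. The C/EBP letters also stood in 9 of the 50 promoters of genes that fell at least 2-fold (18%). A match describes the letters of the window and is not a binding site.

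Of 23 analysed genes of positive acute phase proteins, 6 rose and 1 fell, with a median change of 0.39, and all 6 rises were of at least 2-fold. Lcn2, lipocalin 2, which binds bacterial siderophores, rose from 57.3 and 44.7 FPKM to 839 and 484 FPKM (3.63 ± 0.59, adjusted p = 0.00336). Hpx, the plasma scavenger of heme, rose from 2439 and 2092 FPKM to 6185 and 5402 FPKM (1.36 ± 0.23, adjusted p = 0.00403), a call lost without LPS replicate 1 (1.26). The fibrinogen chains, positive acute phase proteins and the substrate of thrombin, were lower with LPS without passing the test: Fgb was at 2625 and 2701 FPKM untreated and at 1669 and 1760.2 FPKM with LPS (-0.64, adjusted p = 0.0706). Fga (-0.53) and Fgg (-0.69) gave similar values, and for each of the 3 chains both LPS livers lay below both untreated livers. Crp, C-reactive protein, fell from 376 and 376 FPKM to 204 and 195 FPKM (-0.91 ± 0.16, adjusted p = 0.00504), and lost the call without LPS replicate 1 (-0.94) or LPS replicate 2 (-0.88). The joined row Orm1/Orm2/Orm3, orosomucoid, rose from 432 and 621 FPKM to 1422 and 1229.7 FPKM (1.35 ± 0.31), and was lost without LPS replicate 1 (1.25), LPS replicate 2 (1.45) or untreated replicate 1 (1.09). Haptoglobin, Hp, was at 4313 and 3113 FPKM untreated and at 4959 and 5289.6 FPKM with LPS (0.48, adjusted p = 0.359). Hamp, the iron hormone hepcidin, overlapped between the groups (566 and 1128 against 477 and 908 FPKM). In the plot of plasma protein genes the serum amyloid genes and Lcn2 stand apart from all the others.

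**Figure D3:**
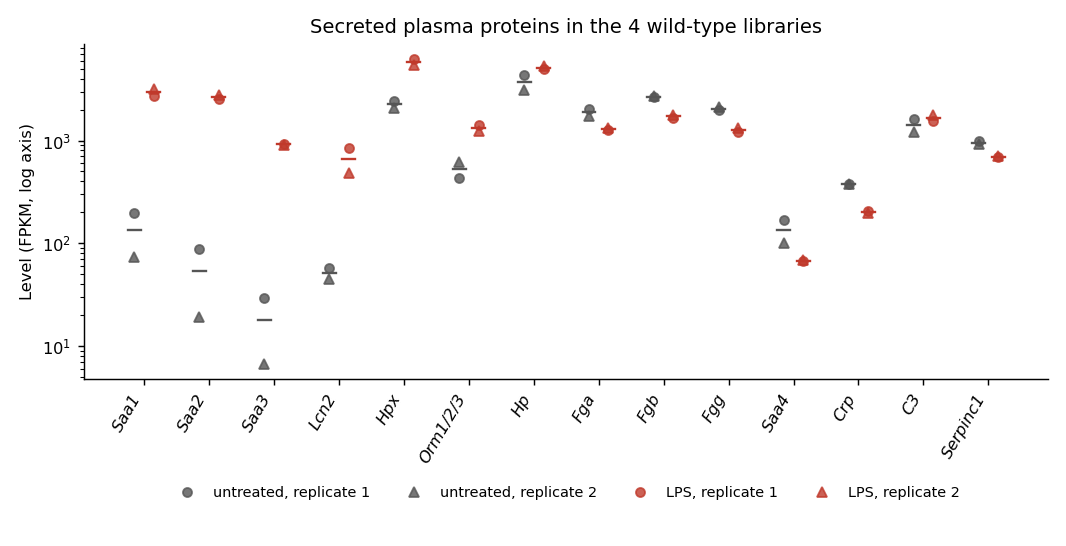
Level of acute phase genes in each wild-type liver, in FPKM on a log axis, 1 point per library and a bar at the mean of each group. Saa1, Saa2, Saa3 and Lcn2 have both LPS livers far above both untreated livers, while the fibrinogen chains Fga, Fgb and Fgg and Crp lie lower with LPS and Hp and C3 show little separation.

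Of 21 analysed complement genes made by hepatocytes none rose and 2 fell (median -0.03). Of 26 coagulation and fibrinolysis genes 5 rose and none fell (median -0.06), 2 of them among the 23 at the floor in both groups. Over all genes 16.5% rose and 5.64% fell, and of those at the floor in both groups 11.3% rose. The coagulation rises were thus near the shares over all genes. C3, the central complement component, was at 1636 and 1219 FPKM untreated and at 1561 and 1789 FPKM with LPS (0.24). Both of the complement falls were lost without LPS replicate 1 or LPS replicate 2; 1 of them was Mbl2, a lectin that starts the complement cascade (212 and 141 against 78.2 and 101 FPKM, -0.96, and -0.78 and -1.13 without LPS replicate 1 and LPS replicate 2, and -0.66 without untreated replicate 1). Of 19 negative acute phase and carrier proteins, 1 rose and none fell, with a median of -0.30. The rise was that of Trf, transferrin, from 4903 and 3628 FPKM to 8672 and 8017 FPKM (0.98 ± 0.25, adjusted p = 0.029), which was lost without LPS replicate 1 (0.93), LPS replicate 2 (1.04) or untreated replicate 2 (0.77).

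Of 32 analysed genes of LPS sensing and signalling 15 rose and 1 fell, beside 16.5% and 5.64% of all genes. Above the floor in 1 group only were 9 of the 32, among them Tlr1, Tlr2 and Tlr4, and such genes had to differ. Of the 23 at the floor in both groups 6 rose, beside 11.3% of all such genes. Cd14, the LPS co-receptor, rose from 5.36 and 2.35 FPKM to 21.7 and 26.0 FPKM (2.42 ± 0.41, adjusted p = 0.0042). Ly86, which partners the TLR4-like receptor RP105, rose from 3.81 and 3.11 FPKM to 29.2 and 26.5 FPKM (2.70 ± 0.16, adjusted p = 9.37e-05). The receptors for bacterial lipoproteins, Tlr1 (2.64) and Tlr2 (2.14), rose from under 1 FPKM to between 5.60 and 7.52 FPKM. Tlr4, the LPS receptor, had 0.522 and 0.688 FPKM untreated and 1.80 and 1.70 FPKM with LPS (0.78, adjusted p = 0.00274), a call lost under quantile normalisation. Myd88, the adaptor shared by most of these receptors, was at 12.7 and 7.89 FPKM untreated and at 12.3 and 12.2 FPKM with LPS (0.26, adjusted p = 0.386). The 1 fall was Ikbkg, the regulatory subunit of the IkB kinase, from 15.1 and 18.0 FPKM to 8.28 and 8.79 FPKM (-0.87, adjusted p = 0.00599), which was lost without LPS replicate 1 (-0.83).

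Among 23 genes of feedback and LPS clearance 8 rose and 1 fell, beside 16.5% and 5.64% of all genes. Above the floor in 1 group only were 4 of the 23, and such genes had to differ. Of the 19 at the floor in both groups 5 rose, beside 11.3% of all such genes. Aoah, Irak3 and Irg1 reached the floor with LPS only. Aoah, the enzyme that inactivates LPS by deacylation, was at 0.540 and 0.204 FPKM untreated and at 15.3 and 14.3 FPKM with LPS (3.54 ± 0.15, adjusted p = 9.37e-05). Irak3, an inhibitor of Toll-like receptor signalling, rose from 0.610 and 0.441 FPKM to 4.93 and 6.80 FPKM (2.16 ± 0.16, adjusted p = 0.000159), and Irg1, which makes the antibacterial metabolite itaconate, from 0.163 and 0.0212 FPKM to 2.18 and 3.38 FPKM (1.78). Il10ra, the receptor for the anti-inflammatory cytokine IL-10, rose from 1.06 and 0.740 FPKM to 6.34 and 6.09 FPKM (1.93). Other feedback genes did not pass. Nfkbia, the inhibitor of NF-kB, was at 32.6 and 34.0 FPKM untreated and at 26.9 and 37.6 FPKM with LPS (-0.06, adjusted p = 0.846). Socs3, the inhibitor of IL-6 signalling, was at 21.8 and 3.75 FPKM untreated and at 10.2 and 6.28 FPKM with LPS (-0.20), with the untreated pair far apart.

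Of 11 cytokines analysed 7 rose and none fell, and of 14 chemokine ligands 5 rose and none fell; 2 members of each list entered through 1 group only. Without LPS replicate 1 these counts were 4 and 3, and without untreated replicate 2 the chemokine count was 3. Cxcl13, the chemokine that draws B cells, rose from 4.66 and 1.12 FPKM to 50.01 and 108 FPKM (4.43 ± 0.55, adjusted p = 0.000885). Ccl5, a chemokine for T cells and monocytes, rose from 2.70 and 1.40 FPKM to 13.8 and 16.4 FPKM (2.43), and Il1a, an IL-1 receptor ligand, from 2.16 and 1.67 FPKM to 6.52 and 6.22 FPKM (1.34, adjusted p = 0.00054). Cxcl1, a neutrophil chemokine, had 84.4 and 7.01 FPKM untreated and 8.67 and 5.57 FPKM with LPS, so that untreated replicate 1 alone was high. Cxcl10, a chemokine that interferon induces, was at 1.61 and 1.19 FPKM untreated and at 1.39 and 1.90 FPKM with LPS (0.14). Of 23 interferon-stimulated genes, 3 rose and 1 fell (median 0.13), beside 16.5% and 5.64% of all genes. Of the 21 at the floor in both groups 2 rose, beside 11.3% of all such genes. The list thus did not exceed the shares over all genes. The fall was Usp18, which removes ISG15 from proteins and blocks the interferon receptor, from 10.8 and 9.62 FPKM to 4.54 and 4.18 FPKM (-1.06 ± 0.15, adjusted p = 0.00197).

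Of 25 cytokine receptor and JAK-STAT genes 9 rose and 3 fell, and without LPS replicate 1 or LPS replicate 2 the falls numbered 1. Among those that rose were receptors of blood cells: Csf1r, the receptor for the macrophage growth factor, from 15.9 and 7.87 FPKM to 125 and 122 FPKM (3.34 ± 0.30, adjusted p = 0.000224), Il2rg, the common chain of lymphocyte cytokine receptors, from 1.35 and 0.716 FPKM to 11.4 and 12.3 FPKM (2.68), and Csf3r, the receptor for the neutrophil growth factor, from 0.475 and 0.469 FPKM to 6.64 and 6.25 FPKM (2.34). Csf3r reached the floor with LPS only and so had to differ. Lifr, the receptor for leukemia inhibitory factor, fell from 32.9 and 41.5 FPKM to 14.5 and 16.0 FPKM (-1.22 ± 0.16, adjusted p = 0.000993). Il1r1, the receptor for IL-1, fell from 41.5 and 67.3 FPKM to 25.1 and 24.7 FPKM (-1.06 ± 0.22, adjusted p = 0.0104), and lost the call without LPS replicate 1 (-1.07) or LPS replicate 2 (-1.05). The IL-6 receptor chains differed little: Il6ra was at 32.6 and 25.3 FPKM untreated and at 25.3 and 29.2 FPKM with LPS (-0.08), and Il6st, its signalling chain, at 15.1 and 15.6 against 16.9 and 18.3 FPKM (0.18).

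Most of the analysed Kupffer cell markers rose, and 8 of 14 markers of monocytes and recruited macrophages did. Of the latter list 5 members entered through 1 group only. Of its 9 members at the floor in both groups 4 rose, beside 11.3% of all such genes. Its summed level was between 1823 and 2691 FPKM in the untreated livers and between 1586 and 1670 FPKM with LPS. That list includes Fn1 and Arg1, which hepatocytes also express, so this sum does not measure monocytes and macrophages alone. The median change of its 14 analysed members was 1.37, and none fell. Marco (chr1:120474538-120505024), a scavenger receptor for bacteria, was at 9.72 and 1.58 FPKM untreated and at 388 and 442 FPKM with LPS (6.30 ± 0.60, adjusted p = 0.000278). Summed over the 14 analysed Kupffer cell markers, the level was 164 to 296 FPKM untreated and 1512 to 1527 FPKM with LPS. Most of the sum with LPS came from Marco, Cd5l, Hmox1 and Slc40a1. Hmox1 and Slc40a1 are also counted with the heme and iron genes below. Of the 14 markers 12 rose, with a median change of 1.97. Cd5l, an inhibitor of apoptosis secreted by macrophages, rose from 47.3 and 19.4 FPKM to 419 and 405 FPKM (3.72 ± 0.36, adjusted p = 0.000317). Timd4, a receptor for phosphatidylserine on dying cells, rose from 2.88 and 1.74 FPKM to 20.6 and 29.3 FPKM (2.97 ± 0.22), and Spic, a transcription factor of macrophages that recycle iron, from 0.888 and 0.620 FPKM to 16.6 and 19.7 FPKM (3.45). Clec4f, a lectin that in the mouse marks resident Kupffer cells, did not move with the others: it was at 42.3 and 24.2 FPKM untreated and at 29.6 and 35.3 FPKM with LPS (0.01, 95% interval -0.75 to 0.78). The plot of macrophage genes shows Clec4f with overlapping groups beside markers whose LPS livers lie well above both untreated livers.

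**Figure D4:**
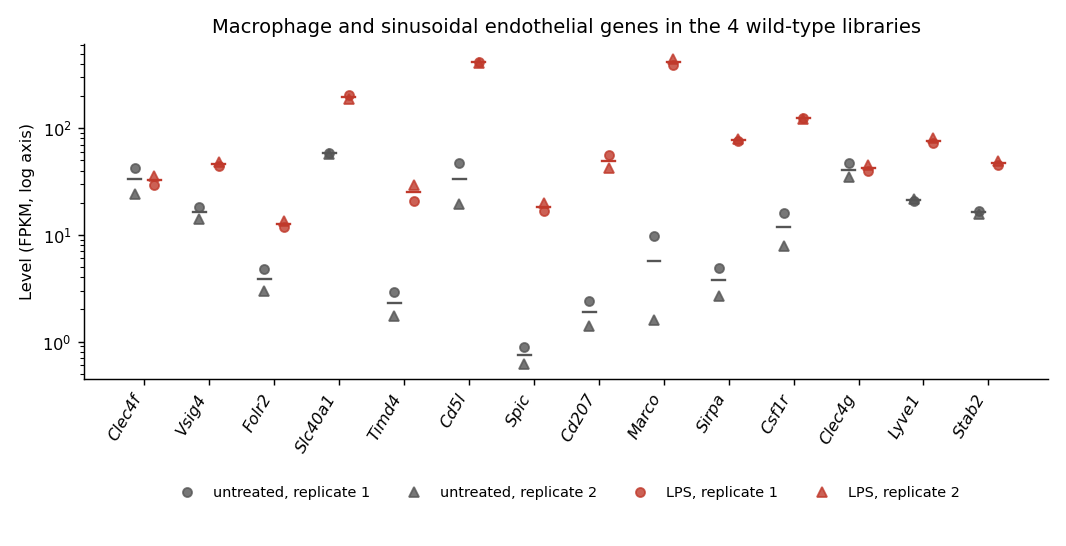
Level of macrophage and sinusoidal endothelial genes in each wild-type liver, in FPKM on a log axis, 1 point per library and a bar at the mean of each group. Marco, Cd5l, Timd4 and Cd207 are higher in both LPS livers, whereas the 4 values of Clec4f overlap between 24.2 and 42.3 FPKM.

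The promoter of Marco is shown because this gene had the largest log2 rise among the genes described here. It lies on the minus strand at chr1:120504975-120505274 (RefSeq, GRCm38.p6), and capitals mark its match to GGNNTTTCC, the NF-kB letters, which begins 29 bases before the start of the gene. The windows of Cxcl13 and S100a8 were also searched and are not shown. Cxcl13 held no match to the NF-kB letters, and S100a8 held none to the C/EBP letters.
Marco: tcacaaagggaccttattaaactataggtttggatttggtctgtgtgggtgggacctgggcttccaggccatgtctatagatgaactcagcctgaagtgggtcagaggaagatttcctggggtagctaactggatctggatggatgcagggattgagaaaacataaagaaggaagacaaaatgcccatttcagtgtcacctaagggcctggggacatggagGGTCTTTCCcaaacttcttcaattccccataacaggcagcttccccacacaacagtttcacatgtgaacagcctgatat

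Genes of the phagocytic machinery rose with the markers. Sirpa, an inhibitory receptor that reads CD47 on other cells, rose from 4.91 and 2.65 FPKM to 75.8 and 78.6 FPKM (4.07 ± 0.24), and Tyrobp, the ITAM adaptor DAP12, from 20.5 and 10.2 FPKM to 149.6 and 141 FPKM (3.23). The oxidase subunit Cybb rose from 3.29 and 2.64 FPKM to 24.3 and 24.3 FPKM (2.68), and Rac2, the small GTPase that activates it, from 1.83 and 1.02 FPKM to 31.1 and 32.9 FPKM (3.79); of the 15 analysed members of that list 7 were above the floor in 1 group only. Of 31 genes of the actin cytoskeleton and motility 23 rose (median 1.53), 20 of them among the 28 at the floor in both groups. Emr1, which encodes the macrophage antigen F4/80, rose from 6.69 and 3.40 FPKM to 118 and 106 FPKM (4.28 ± 0.29). Cd207, langerin, a lectin of some dendritic cells, rose from 2.41 and 1.41 FPKM to 55.6 and 42.4 FPKM (4.11 ± 0.23, adjusted p = 9.37e-05). Fcgrt, the receptor that recycles IgG and albumin and is expressed in hepatocytes too, was at 143 and 98.2 FPKM untreated and at 118 and 114 FPKM with LPS (-0.03).

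Genes of neutrophils, of B and plasma cells and of dividing cells rose from low levels. S100a8 (chr3:90668978-90670035) and S100a9 (chr3:90692632-90695721) encode calprotectin, the main cytosolic protein of neutrophils. S100a8 rose from 4.46 and 4.82 FPKM to 163 and 94.6 FPKM (4.47 ± 0.27, adjusted p = 9.37e-05) and S100a9 from 3.24 and 3.26 FPKM to 127 and 78.7 FPKM (4.57 ± 0.40, adjusted p = 0.000223), with LPS replicate 1 the higher for both. Granule proteins made in neutrophil precursors followed the same order: Ngp was at 0.169 and 0.367 FPKM untreated and at 27.8 and 16.4 FPKM with LPS (4.15), and Camp, cathelicidin, at 0 and 0.204 against 16.2 and 8.61 FPKM (3.55). Mpo, myeloperoxidase, rose from 0.0268 and 0.0182 FPKM to 6.56 and 5.07 FPKM (2.73). Ngp, Camp and Mpo reached the floor with LPS only and so had to differ.

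The promoter of S100a9 is shown as the calprotectin gene whose window holds the C/EBP letters; it lies on the minus strand at chr3:90695672-90695971 (RefSeq, GRCm38.p6), and the match in capitals begins 236 bases before the start.
S100a9: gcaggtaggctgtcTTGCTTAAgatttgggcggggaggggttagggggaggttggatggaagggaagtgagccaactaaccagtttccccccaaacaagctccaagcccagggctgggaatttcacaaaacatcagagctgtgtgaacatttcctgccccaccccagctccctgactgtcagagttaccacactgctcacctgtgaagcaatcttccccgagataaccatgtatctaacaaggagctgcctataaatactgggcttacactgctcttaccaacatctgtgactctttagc

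Of 11 B and plasma cell markers 10 rose, 9 of them above the floor in 1 group only. Igj, the chain that joins secreted IgA and IgM, rose from 0.820 and 0.709 FPKM to 24.1 and 36.2 FPKM (4.12), and Mzb1, a plasma cell chaperone, from 0.577 and 0.391 FPKM to 11.3 and 14.05 FPKM (3.20). T and NK cell markers stayed low, with 3 of 24 analysed, 2 of which rose (1 without LPS replicate 2), and a summed level of 5.96 to 6.48 FPKM untreated and 13.7 to 14.9 FPKM with LPS. Of 12 markers of mast cells, basophils and eosinophils 1 was analysed and it did not pass. All 8 analysed megakaryocyte and platelet markers rose, among them Pf4, platelet factor 4, from 1.08 and 0.742 FPKM to 15.3 and 11.3 FPKM (2.89); 3 of the 8 entered through 1 group only, and the other 5 compare with the 11.3% of all genes at the floor in both groups. Of 7 erythroid genes 4 rose and none fell, 3 of the 7 through 1 group only, and 2 rose without LPS replicate 1 or untreated replicate 2. Among them Slc4a1, the anion exchanger of red cells, which reached the floor with LPS only, rose from 0.156 and 0.0686 FPKM to 8.86 and 4.65 FPKM (2.75). Of 31 cell cycle genes 21 rose, beside 16.5% of all genes, but 16 of the 31 entered through 1 group only and so had to differ. Of the 15 at the floor in both groups 5 rose, beside 11.3% of all such genes. Top2a, the topoisomerase of dividing cells, which reached the floor with LPS only, rose from 0.0936 and 0.0736 FPKM to 2.45 and 2.41 FPKM (1.66). The 1 fall in that list was Cdkn1a, the cell cycle inhibitor p21, from 34.6 and 53.5 FPKM to 13.8 and 17.5 FPKM (-1.42 ± 0.23, adjusted p = 0.00362). Which of these cells carried the dividing-cell genes was not tested.

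Antigen presentation moved in part. Of 11 analysed genes of MHC class II presentation 7 rose, and 11 did without untreated replicate 1. The class II chains themselves did not pass: H2-Aa was at 29.5 and 11.2 FPKM untreated and at 38.8 and 29.4 FPKM with LPS (0.85, adjusted p = 0.215), and H2-Ab1 at 22.3 and 5.57 against 28.7 and 22.4 FPKM (1.09, adjusted p = 0.201), with untreated replicate 1 close to the LPS livers. The proteases that prepare class II peptides rose: Ctss from 30.5 and 20.02 FPKM to 132 and 119.7 FPKM (2.30) and Lgmn from 33.8 and 23.8 FPKM to 153 and 146 FPKM (2.36). For MHC class I and the immunoproteasome 5 of 16 rose, and 3, 2 and 3 did without LPS replicate 1, LPS replicate 2 and untreated replicate 2.

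Vascular and matrix genes rose as groups. Of 18 vascular endothelial markers 15 rose (median 1.22), and of 18 sinusoidal endothelial markers 13 (median 1.05). Vcam1, the adhesion molecule that holds leukocytes on endothelium, rose from 9.98 and 8.58 FPKM to 41.0 and 46.3 FPKM (2.12). The sinusoidal hyaluronan receptors Lyve1 (20.7 and 21.7 FPKM to 72.2 and 80.7 FPKM, 1.80 ± 0.14) and Stab2 (16.9 and 15.5 FPKM to 44.9 and 48.7 FPKM, 1.47) rose. Clec4g, a lectin of the same cells, was at 46.7 and 35.1 FPKM untreated and at 39.9 and 44.9 FPKM with LPS (0.06, 95% interval -0.34 to 0.46). Of 15 collagens 13 rose (median 1.78). Col3a1, a fibrillar collagen, rose from 4.50 and 2.25 FPKM to 66.4 and 35.8 FPKM (3.56 ± 0.32), and Col1a1 from 2.23 and 1.10 FPKM to 29.7 and 16.6 FPKM (3.16); LPS replicate 1 was the higher for both. Sparc, a collagen-binding protein, rose from 18.7 and 13.4 FPKM to 103 and 83.8 FPKM (2.48). Fn1, fibronectin, which hepatocytes secrete into plasma, was at 211 and 207 FPKM untreated and at 187 and 213 FPKM with LPS (-0.06). Of 19 stellate cell and fibroblast markers 13 rose, and 5 and 8 did without LPS replicate 1 and LPS replicate 2. Tgfb1, the growth factor that drives collagen synthesis, rose from 4.91 and 2.51 FPKM to 21.0 and 20.9 FPKM (2.27).

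Genes of protein folding and protein degradation were lower with LPS. Of 27 ER chaperones 14 fell and none rose, with a median of -0.68 beside -0.05 over all genes. Hspa5, the ER chaperone BiP, fell from 252 and 301 FPKM to 114 and 109.8 FPKM (-1.29 ± 0.18, adjusted p = 0.00179), and Hyou1, its nucleotide exchange factor, from 30.9 and 26.5 FPKM to 12.4 and 12.6 FPKM (-1.13 ± 0.19, adjusted p = 0.00385). For both genes the LPS livers lay close together at under 50% of the lower untreated liver. Creld2, an ER protein induced by unfolded proteins, fell from 18.4 and 16.4 FPKM to 8.03 and 8.04 FPKM (-1.02 ± 0.21, adjusted p = 0.0111) and lost the call without LPS replicate 1 (-1.02) or LPS replicate 2 (-1.02). P4hb, protein disulphide isomerase, was at 520.4 and 436 FPKM untreated and at 441 and 379 FPKM with LPS (-0.22), and Xbp1, a transcription factor of the unfolded protein response, at 105 and 74.1 against 75.3 and 74.3 FPKM (-0.24). The count of 14 became 2 without LPS replicate 1, 2 without LPS replicate 2, 7 without untreated replicate 2 and 6 after rescaling to a common sum. Of 30 genes of ER translocation and glycosylation 1 fell (median -0.17).

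The promoters of Hspa5 (plus strand, chr2:34771840-34772139) and Creld2 (plus strand, chr15:88819396-88819695), from RefSeq (GRCm38.p6), are shown because they hold the paired letters CCAAT, 9 bases, CCACG, the ER stress response element that ATF6 and XBP1 use. Capitals mark the letters of the pair on either strand; it begins 65 bases before the start of Hspa5 and 126 bases before that of Creld2.
Hspa5: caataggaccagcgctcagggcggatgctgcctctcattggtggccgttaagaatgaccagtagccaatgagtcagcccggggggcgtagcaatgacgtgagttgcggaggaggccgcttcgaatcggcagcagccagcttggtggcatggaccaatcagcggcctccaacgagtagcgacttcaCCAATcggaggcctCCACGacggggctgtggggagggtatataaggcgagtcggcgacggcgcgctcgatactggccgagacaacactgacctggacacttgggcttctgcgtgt
Creld2: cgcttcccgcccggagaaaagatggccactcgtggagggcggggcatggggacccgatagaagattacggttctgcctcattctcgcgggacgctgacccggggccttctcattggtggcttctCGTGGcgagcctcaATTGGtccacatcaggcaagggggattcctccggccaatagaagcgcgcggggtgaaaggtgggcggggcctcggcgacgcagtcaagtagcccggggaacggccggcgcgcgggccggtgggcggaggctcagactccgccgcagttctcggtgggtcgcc

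This pair, chosen after the falls of the chaperones were seen, was found in 8 of the 20 matched promoters of ER chaperones (40%), in 12 of all 8046 (0.149%) and in 9 of the 449 promoters of genes that fell (2.00%).

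Of 30 proteasome subunits 20 fell and none rose (median -0.64), and for all 30 both LPS livers lay below both untreated livers, beside 34.7% of all genes. Psmd1, a subunit of the regulatory particle, fell from 55.5 and 62.4 FPKM to 34.0 and 30.5 FPKM (-0.85, adjusted p = 0.00605; -0.78 without LPS replicate 2, where the call was lost). Psmc6, an ATPase of the same particle, fell from 69.9 and 116 FPKM to 43.6 and 38.3 FPKM (-1.12 ± 0.25, adjusted p = 0.0139; -1.21 and -1.03 without LPS replicate 1 and LPS replicate 2, where the call was lost). The count became 2 without LPS replicate 1, 0 without LPS replicate 2, 7 after rescaling to a common sum and 10 after quantile normalisation. Psmb8 and Psmb9, which interferon places into the immunoproteasome, changed in the opposite direction to these 30 subunits. Psmb8 rose from 17.0 and 11.99 FPKM to 29.1 and 29.0 FPKM (0.98 ± 0.21, adjusted p = 0.0131), and was lost without LPS replicate 1 (0.97), LPS replicate 2 (0.98) or untreated replicate 2 (0.74). Psmb9 rose from 7.35 and 8.89 FPKM to 13.7 and 17.0 FPKM (0.84, adjusted p = 0.0122), and was lost without LPS replicate 2 (0.70). Cytosolic ribosomal proteins, in contrast, had a median of 0.22: 3 of 53 rose and none fell, with 9 rises without untreated replicate 1, 1 without untreated replicate 2, 1 without LPS replicate 2, 13 after rescaling and 8, with 2 falls, after quantile normalisation. Of 36 genes of respiratory chain complex I 9 fell (median -0.34), and none did without either LPS library or after rescaling, and 1 after quantile normalisation.

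**Figure D5:**
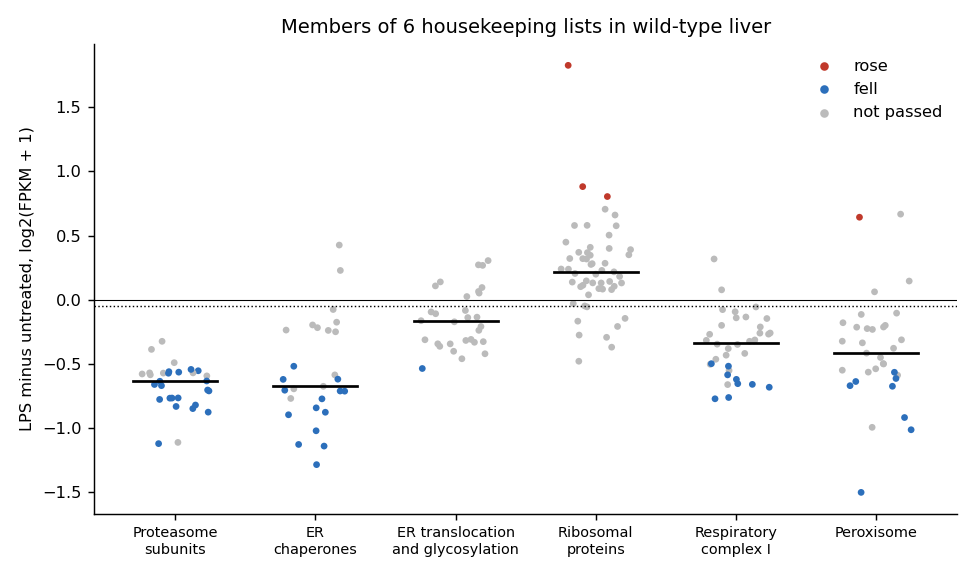
Change of each analysed member of lists of housekeeping genes with repeated LPS in wild-type liver, as the difference in log2(FPKM + 1), 1 point per gene, with a bar at the median of the list and a dotted line at the median of all genes, -0.05. Proteasome subunits (median -0.64) and ER chaperones (-0.68) lie lower than the cytosolic ribosomal proteins (0.22).

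Hepatocyte metabolism was lower in part. Of 34 cytochrome P450 genes of families 1 to 4, 12 fell and 3 rose; 3, 2 and 6 fell without LPS replicate 1, LPS replicate 2 and untreated replicate 2, and 5 after rescaling. Cyp4a10, which hydroxylates the end of fatty acid chains, fell from 1827 and 1947 FPKM to 609.5 and 389 FPKM (-1.95 ± 0.25, adjusted p = 0.00103); it belongs to a family of near-identical copies, so its reads may be shared. Cyp3a11, the main drug-metabolising form in mouse liver, was at 1261 and 1153 FPKM untreated and at 1421 and 1147 FPKM with LPS (0.08). Cyp2c37 fell from 187 and 151 FPKM to 54.7 and 54.6 FPKM (-1.60 ± 0.22). Of 25 phase II conjugation genes 9 fell (median -0.83), with 2 and 0 without LPS replicate 1 and LPS replicate 2, 4 after rescaling and 5 after quantile normalisation. Of 33 genes of peroxisome biogenesis and oxidation 8 fell and 1 rose; 2, 1 and 5 fell without LPS replicate 1, LPS replicate 2 and untreated replicate 2, 1 after rescaling and 5 after quantile normalisation. Ehhadh, the peroxisomal bifunctional enzyme of fatty acid oxidation, fell from 836 and 1017 FPKM to 432 and 243 FPKM (-1.50 ± 0.28, adjusted p = 0.00633).

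The 36 falls called in every one of the 20 alternatives that tested them include several metabolic genes, which were picked from among the 36 after their values were seen. The deepest fall was that of a joined row of 2 major urinary protein genes, Gm2083/Mup17, carriers of pheromones in male urine, from 201 and 1564 FPKM to 2.22 and 3.92 FPKM (-7.14 ± 1.12, adjusted p = 0.00287); reads of this cluster may be shared among its near-identical copies, and the untreated livers were far apart. Vnn1, a pantetheinase and a target of the fatty acid receptor PPAR-alpha, fell from 75.7 and 48.9 FPKM to 19.6 and 14.4 FPKM (-1.80 ± 0.24, adjusted p = 0.00122), and Retsat, a retinol saturase, from 934 and 637 FPKM to 313 and 288 FPKM (-1.36). Dio1, which activates thyroid hormone, fell from 106 and 135 FPKM to 29.3 and 31.0 FPKM (-1.95 ± 0.32). In bile acid synthesis and export, Cyp27a1, the sterol 27-hydroxylase, fell from 379.7 and 373 FPKM to 153 and 182 FPKM (-1.17 ± 0.16, adjusted p = 0.00145), Cyp39a1, an oxysterol hydroxylase, from 48.9 and 45.6 FPKM to 12.002 and 15.3 FPKM (-1.73 ± 0.27), and Abcb11, the bile salt export pump, from 65.1 and 71.1 FPKM to 31.2 and 32.3 FPKM (-1.08 ± 0.17, adjusted p = 0.00266). Cyp7a1 itself, the gene of the transgene used in the study's other animals, was at 24.9 and 49.1 FPKM untreated and at 19.9 and 27.9 FPKM with LPS and did not pass (-0.55 ± 0.31, adjusted p = 0.234). Acacb, which makes the malonyl-CoA that limits fatty acid oxidation, fell from 9.28 and 9.40 FPKM to 3.10 and 2.91 FPKM (-1.37 ± 0.17, adjusted p = 0.001). Hnf4a, a nuclear receptor that maintains hepatocyte identity, fell from 325 and 247 FPKM to 144 and 146 FPKM (-0.96 ± 0.21, adjusted p = 0.0146), a call lost without LPS replicate 1 (-0.95) or LPS replicate 2 (-0.97). Of 35 liver transcription factors and nuclear receptors 4 fell and none rose (median -0.23); none fell without either LPS library, and 1 without untreated replicate 2. Of 43 genes of the urea cycle and amino acid catabolism 6 fell; none did without either LPS library, 10 did without untreated replicate 1, 1 after rescaling or quantile normalisation, and 12 with libraries centred on their medians.

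Of 16 genes of heme synthesis and breakdown 4 rose and 1 fell (median -0.16), and 2 rose without LPS replicate 1 or untreated replicate 2. Over all genes 16.5% rose and 5.64% fell, shares that stand beside this list and the iron handling list below. Hmox1, which breaks down heme, rose from 34.1 and 11.9 FPKM to 207 and 166 FPKM (3.13 ± 0.41, adjusted p = 0.00112). Slc40a1, the iron exporter ferroportin, rose from 59.0 and 57.6 FPKM to 204 and 187 FPKM (1.73 ± 0.15), and Blvra, which reduces the biliverdin that Hmox1 makes, from 8.91 and 7.78 FPKM to 19.3 and 17.6 FPKM (1.06). Both LPS livers lay above both untreated livers for all 3 genes, as they did for 30.2% of all genes. Of 27 iron handling genes 9 rose and none fell (median 0.26), and 5 rose without LPS replicate 1.

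The same treatment in the transgenic mice, tested against its own controls with a shared estimate of spread, raised 1774 of the 11097 genes (16%) and lowered 1202 (10.8%). Of the 1829 rises in wild-type liver 1448 also rose in transgenic liver, which is 79.2% of the wild-type and 81.6% of the transgenic rises. Of the 626 falls 304 also fell, which is 48.6% of the wild-type and 25.3% of the transgenic falls. In the opposite direction, 11 of the 626 wild-type falls passed as rises in transgenic liver. Of the 1829 wild-type rises 2 passed there as falls. The change with LPS differed between the genotypes for 1 gene (0.00901%) by limma's interaction test, the urinary protein gene Mup12, and for 1171 genes at an unadjusted p under 0.05. That count was 0 without either wild-type LPS library or untreated replicate 2, 5 without untreated replicate 1, 4 without either transgenic untreated library and 278 without transgenic LPS replicate 2. Saa1 changed by 4.60 in wild-type and by 5.19 in transgenic liver (interaction adjusted p = 0.796), and Marco by 6.30 and 5.81 (adjusted p = 0.858). Some of the falls had a value near or above 0 in transgenic liver without a difference that passed: Cyp39a1 changed by -1.73 in wild type and its transgenic value was -0.12 (interaction adjusted p = 0.366), Acacb had -1.37 and 0.49 (adjusted p = 0.141), and Cdkn1a -1.42 and 0.54 (adjusted p = 0.266). An interaction that misses the threshold with 2 libraries per group does not show that the genotypes responded alike.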

How the data were processed

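RNA was sequenced from whole livers that had been flash frozen and pulverised, with a stranded mRNA library kit, per the labels' protocols. The authors deposited FPKM for 24545 rows and 8 libraries; per the submitters' processing notes, TopHat2 2.1.0, Bowtie2 2.2.6, Cufflinks and Cuffdiff 2.2.1 were used with the mm10 genome build. The labels do not say whether counting used strand or how many reads each library had, so no count model was run and no interval for counting error can be given. FPKM depend on the other genes of a library, so that a large change in abundant genes moves the rest. Rows at 0 in all libraries (6197) and names turned into dates (27) were left out; for 492 repeated names 1 row was kept, and 549 sets of rows with identical values, which cover 1280 names, were joined into 1 feature, leaving 17294 features. Tests were made with limma 3.58.1 in R 4.3.3 on log2(FPKM + 1) with a mean-dependent prior, 2-sided, with a mean for each of 4 groups over all 8 libraries, after a floor of 1 FPKM in at least 2 of the 4 wild-type libraries. The procedure was tested on simulated data. The labels call the 2 libraries of a group biological replicates. Summaries and figures used Python 3.11.15, pandas 2.3.3 and matplotlib 3.10.9. Positions of genes are from GENCODE vM21 (GRCm38), promoters from RefSeq (GRCm38.p6), and shares of motifs were counted on both strands. Genes were named by rule: the 10 largest rises and falls on the log2 and on the FPKM scale, and in each list up to the 4 largest changes that passed, or the 2 members of highest mean where none did, with the serum amyloid and calprotectin genes and Cyp7a1; this gave 219 genes. Major urinary protein genes, unnamed gene models and rows that join several names were not named among the largest changes. The 39 further genes with values in the text (Abcb11, Acacb, C3, Camp, Clec4f, Clec4g, Crp, Cxcl1, Cxcl10, Cybb, Cyp27a1, Cyp3a11, Fbp1, Fcgrt, Fga, Fgb, Fgg, Fn1, Gm2083/Mup17, H2-Aa, H2-Ab1, Hamp, Hp, Ikbkg, Il1r1, Il6ra, Il6st, Irg1, Lifr, Mpo, Myd88, Nfkbia, Orm1/Orm2/Orm3, P4hb, Socs3, Stab2, Tlr4, Top2a and Xbp1) were chosen after their values were seen, as was the ER stress motif. The members, the 62 gene lists and the tests were chosen with earlier results of these data known. Alternatives were other pseudocounts, floors, scalings, handling of repeated names, moderation, a replicate block, the wild-type libraries alone and leaving out each library.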

Additional observations from a re-analysis of the deposited data

Results flagged for a closer look

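Mup12 (chr4:60737383-60741326, GRCm38), a member of the cluster of major urinary proteins that male mouse liver secretes, was the 1 gene whose change with LPS differed between the genotypes by the interaction test. It was listed at 0 and 0 FPKM in the untreated wild-type livers and at 2.76 and 1.66 FPKM with LPS (adjusted p = 0.0224, a call lost without any 1 of the wild-type libraries), and at 38.2 and 89.9 FPKM in the untreated transgenic livers and 0.298 and 1.196 FPKM with LPS (-5.14). The difference, transgenic minus wild type, was -6.80 ± 0.57 (SE, limma, adjusted p = 0.0328, 95% interval -8.13 to -5.48). Both wild-type LPS libraries moved in the opposite direction to both transgenic LPS libraries. Genes of this cluster are near-identical copies, so reads may be shared among them, and a listed 0 may be a failed estimate.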

How the results depend on the processing

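With 2 libraries per group the call of a single gene often rests on 1 library. Of 219 named genes none that passed changed direction in any alternative; of those that did not pass, Ctrb1 went from -1.53 to 0.70 and Cela1 from -0.65 to 1.02 without untreated replicate 1 of the wild type, alone or with its transgenic counterpart, and Mt1 from 0.52 to -0.18 and Mt2 from 0.15 to -0.73 without untreated replicate 2. Over the refits without 1 library these ranged from -3.76 to 0.70 (Ctrb1), -2.31 to 1.02 (Cela1), -0.18 to 1.22 (Mt1) and -0.73 to 1.03 (Mt2). Without LPS replicate 1 of the wild type 56 lost the call, and without LPS replicate 2 60. Over the refits that left out 1 library the genes called numbered 1278 to 3470, the rises 1209 to 2232, the falls 69 to 1238 and the interactions 0 to 278, against 2455, 1829, 626 and 1 with all libraries. The total was 1278 and 1377 without LPS replicates 1 and 2 of the wild type, the falls were 69 and 70 there, 1238 and 382 without untreated replicates 1 and 2, and 318 without either transgenic untreated library; 278 interactions were called without transgenic LPS replicate 2. With a floor of 5 FPKM 1382 genes passed, 862 of them higher, with 0 interactions. Rescaling each library to the same sum gave 141 falls. Without the floor there were 0 interactions, and with robust moderation 3. Leaving out both untreated libraries numbered 1, an alternative chosen after seeing the data, gave 2903 calls, 2008 rises and 895 falls, with 0 interactions.

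The labels share replicate numbers between groups without saying what the numbers mark. Deviations of same-numbered libraries correlated at 0.11 between the untreated and LPS groups of the wild type, at 0.48 between the untreated groups of the 2 genotypes, at 0.22 between untreated and LPS in the transgenic mice and at 0.02 to 0.17 in the other 3 pairs of groups. A fit with the replicate block called 2731 genes, 1930 higher and 801 lower, and 2 interactions; it ended the call of 6 of the 219 named genes.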

Other observations

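Of 35 analysed genes of glucose metabolism 6 rose and 1 fell with LPS in wild-type liver, with a median of -0.01. Over all genes 16.5% rose and 5.64% fell, so the rises were near the share over all genes. Through 1 group only entered 4 of the 35. Of the 31 at the floor in both groups 3 rose, beside 11.3% of all such genes. Hk1 and Hk3, hexokinases of blood and stromal cells, rose from 0.999 and 0.984 FPKM to 4.28 and 3.79 FPKM (1.34) and from 1.87 and 0.436 FPKM to 11.4 and 10.5 FPKM (2.55). Hk1 reached the floor with LPS only. Pkm, the pyruvate kinase of most tissues other than hepatocytes, rose from 5.34 and 3.03 FPKM to 25.8 and 21.8 FPKM (2.29), while Fbp1, a hepatocyte enzyme of glucose synthesis, was at 903 and 846 FPKM untreated and at 904 and 881 FPKM with LPS (0.03). Of 27 genes of the pentose phosphate pathway and nucleotide synthesis 4 rose and 3 fell, with a median of 0.07; the falls numbered 0 and 1 without LPS replicate 1 and LPS replicate 2 and 1 without untreated replicate 2. Beside the 16.5% of all genes that rose and the 5.64% that fell, the rises in this list were near the share over all genes. G6pdx, the first enzyme of the pentose phosphate pathway, rose from 1.60 and 0.994 FPKM to 6.09 and 6.49 FPKM (1.68), and Impdh1, an enzyme of guanine nucleotide synthesis, from 1.97 and 0.896 FPKM to 11.1 and 11.5 FPKM (2.37).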
